A study of Danio rerio with 2 samples.

Results

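In single cells of the larval zebrafish caudal fin fold, 307 of 1640 cells formed a mesenchyme that carried RNA of the tyrosine catabolism pathway. These cells, called members here, were chosen by their own counts. A member had unique molecular identifiers (UMIs, each a counted RNA molecule) of at least 2 of 6 selecting genes, pah, hpdb, hgd, tat, ttc36 and ucp1. It also had UMIs of fewer than 2 of the cycling genes aurkb, mki67, top2a, cdk1 and tpx2, and the summed UMIs of the superficial epidermis genes cldne, evpla, agr1, anxa1c, scel and oclnb made up less than 0.2% of its total. There were 75 members among 762 cut cells and 232 among 878 uncut cells.

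Phenylalanine and tyrosine are broken down by a short chain of enzymes known mainly from the liver of mammals. Phenylalanine hydroxylase (pah) makes tyrosine with tetrahydrobiopterin as cofactor, and tyrosine aminotransferase (tat) removes its amino group. The dioxygenase encoded by hpdb acts next, and the one encoded by hgd then opens the ring. The products of gstz1 and fah turn what results into molecules that enter central metabolism. The fin fold of a larva holds fibroblast-like mesenchyme between its 2 sheets of epidermis, which lies along stiff collagen and actinodin fibers called actinotrichia.

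The cut library came from a pool of about 150 caudal fin folds at 24 hours post-amputation (hpA), from larvae amputated at 3 days post fertilization (dpf). The uncut library came from a similar pool of intact fin folds of the same time point. The study used AB zebrafish and several transgenic lines, and which of them gave these cells is not given in the sources used here. Each condition had 1 library of 3' transcripts made on the Chromium system, so neither the conditions nor members and other cells were tested against each other. Intervals below are exact 95% intervals (Poisson for levels, Clopper-Pearson for shares) and cover counting error only.

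The cut library held 7033569 UMIs and the uncut library 10458222 UMIs, and no cell barcode was shared between them. Members were shallower than other cells, with a median of 2941 UMIs in cut members against 7829 in cut other cells, and 5200 UMIs in uncut members against 11948 in uncut other cells. Levels are given as UMIs of a gene per 1000000 UMIs (UPM) of the pooled cells. A gene was called higher or lower where the log2 ratio of UPM reached 1 or -1, and a count under 3 was set to the floor of 3.

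The choice of members was sharp at the epidermal limit and graded at the lower end of the selecting genes. The highest summed share of the superficial genes in a member was 0.142%, and the lowest in a cell left out by this limit was 0.315%. In the cut library 85 cells had UMIs of 2 or more selecting genes, of which 8 were left out for cycling genes and 2 for superficial genes. In the uncut library 283 cells had 2 or more, of which 29 were left out for cycling genes and 22 for superficial genes. Just inside the limit on the number of genes, 12 cut and 22 uncut members had exactly 2 of the 6. Just outside it, 24 cut and 56 uncut cells that met the other limits had 1.

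The first enzyme of the pathway was found in most members. The gene pah had 1477 UPM (1427 to 1528) in members, against 11.5 UPM in all other cells, a log2 ratio of 7.01 (6.79 to 7.24). In single members its level ran from 0 through a median of 1688 UPM to 9861 UPM in the cut library, and from 0 through 1991 UPM to 9373 UPM in the uncut library. UMIs of pah were found in 77.3% of cut members and 86.6% of uncut members. These values chose the members and are given as a description.

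The aminotransferase gene tat was found in fewer cells. It had 341 UPM in members and 4.26 UPM in other cells (log2 6.32), and UMIs in 41.3% of cut members and 45.7% of uncut members. The median member had none, and the highest had 3729 UPM in the cut library and 4738 UPM in the uncut library. The dioxygenase genes of the chain were found in most members. The dioxygenase gene hpdb had 1669 UPM in members and 13.4 UPM in other cells (log2 6.96). The next gene of the chain, hgd, had 884 UPM in members and 19.8 UPM in other cells (log2 5.48), with UMIs in 90.7% of cut and 95.7% of uncut members.

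The remaining selecting genes are not enzymes of the chain. The gene ttc36, whose mouse counterpart binds the hpdb product and whose loss in mice raises tyrosine, had 768 UPM in members and 13.6 UPM in other cells (log2 5.81). The gene ucp1 encodes a mitochondrial proton carrier best known from the brown fat of mammals. It had 512 UPM in members and 3.94 UPM in other cells (log2 7.02), with UMIs in 50.7% of cut members and 50.9% of uncut members.

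Most of the UMIs outside the members came from the 61 cells with 2 or more selecting genes that the other limits left out. These cells held 76.0% of the pah UMIs, 80.5% of the hpdb UMIs, 81.5% of the tat UMIs and 62.9% of the hgd UMIs of non-members. Free RNA was gauged in superficial epidermal cells (summed superficial genes at 0.2% or more). UMIs of pah were found in 1.82% (0.788 to 3.55) of 440 cut cells and 9.67% (6.71 to 13.4) of 331 uncut cells of this kind. Without those that had 2 or more selecting genes (2 cut and 22 uncut cells), a step that lowers the share by its construction, it was 1.37% of 438 cut cells and 6.15% of 309 uncut cells. The median depth of the remaining cells was 9918 UMIs in the cut library and 12983 UMIs in the uncut library, above that of members. After each cell was thinned to 2000 UMIs, which left out 19 cut members, no uncut member and 16 superficial cells, pah was found in 66.1% of cut members against 0.708% of 424 cut superficial cells. In the uncut library it was found in 76.7% of members against 1.81% of 331 superficial cells.

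**Figure D1:**
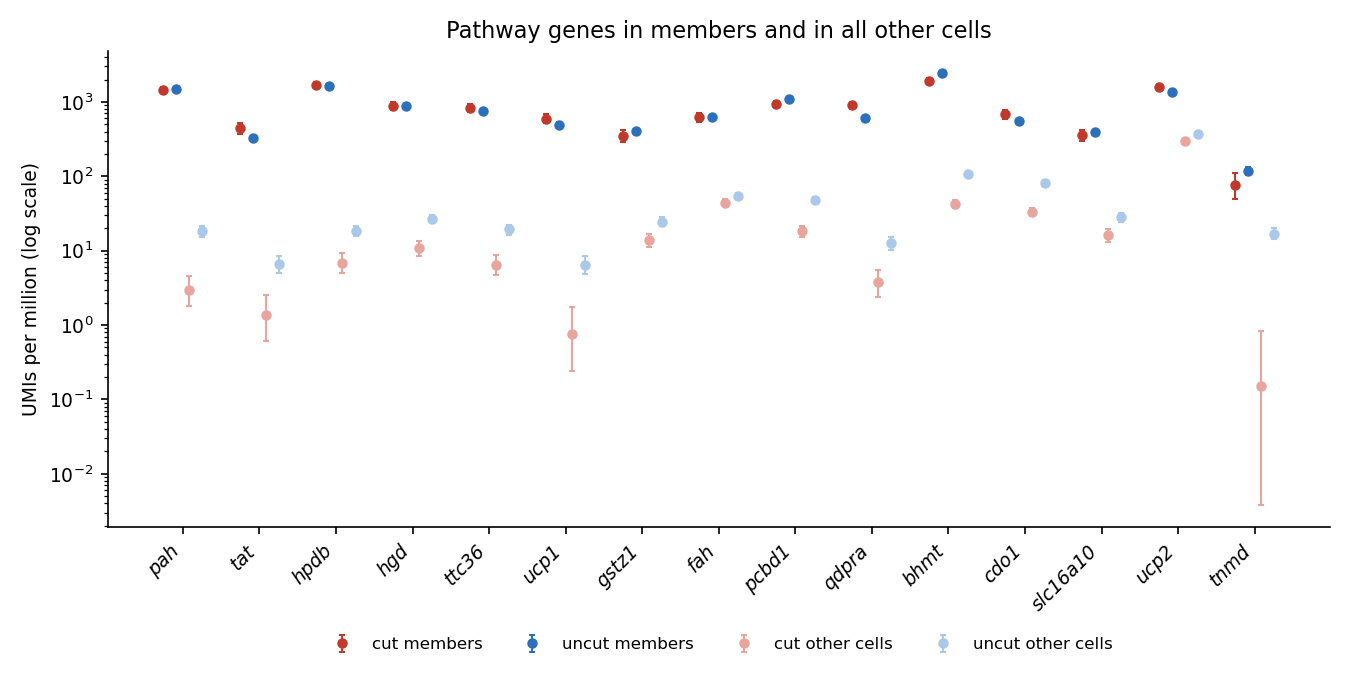
Level of 15 genes in UPM (log scale) in cut members, uncut members, cut other cells and uncut other cells, pooled over cells, with exact Poisson 95% intervals. Every gene shown lies higher in members than in other cells of the same library; for pah the points are 1456 and 1481 UPM in cut and uncut members, against 2.99 and 18.1 UPM in cut and uncut other cells.

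The rest of the chain, which the choice did not use by name, was also present in members. The isomerase gene gstz1 had 395 UPM (369 to 421) in members, against 19.9 UPM in other cells (log2 4.31). The last enzyme, fah, had 619 UPM (587 to 652) in members and 49.5 UPM in other cells (log2 3.64), with UMIs in 86.6% of members and 27.4% of other cells. The second hydroxyphenylpyruvate dioxygenase gene, hpda, had 68 UMIs in members, of which 2 were in the cut library and 66 in the uncut library. A wider list of phenylalanine and tyrosine catabolism had 11 genes in the data besides the selecting ones, and 9 of them had at least 100 UMIs in all. Of the 9, 4 were called higher in members (gstz1, fah, mif and ddt), 1 was called lower (fahd2a) and the median log2 ratio was 0.998. The genes mif, ddt and fahd2a are not among the steps of the chain set out above. Over all 6916 genes with at least 100 UMIs, 10.4% were called higher in members, 29.0% were called lower, and the median was -0.27. The counts over all other cells in the lists below stand beside these shares. Of the 720 higher genes 563 also passed the limit within each library, and of the 2005 lower genes 1019 did. Cut members held 343990 UMIs and uncut members 1906099 UMIs, so pooled levels mostly reflect uncut members.

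The cofactor recycling genes pcbd1 and qdpra were called higher in members. Tetrahydrobiopterin is regenerated by the products of pcbd1 and qdpra. The gene pcbd1 had 1073 UPM (1030 to 1117) in members, against 34.8 UPM in other cells (log2 4.94), and UMIs in 92.5% of members. The gene qdpra had 654 UPM in members and 8.73 UPM in other cells (log2 6.23). The gene gchfr, whose product regulates the first enzyme of cofactor synthesis, had 122 UPM in members and 16.3 UPM in other cells (log2 2.90), with UMIs in 45.6% of members. Among the synthesis genes themselves, gch1 had 27 UMIs, pts 20 and spra 7 in all members, and 486 of the 487 gch2 UMIs and 19 of the pts UMIs lay in 1 cut cell. That cell had 10211 UMIs, UMIs of only 2 selecting genes (5 of pah and 5 of tat), 703 UMIs of wu:fc46h12 and none of col1a1a. Of 5 measured cofactor genes, 4 were called higher in members (qdpra, pcbd1, gchfr and gch2) and none lower.

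Of 30 measured genes of other amino acid and one-carbon breakdown, 9 were called higher, 6 lower and 15 between, with a median log2 ratio of 0.27. Over all 6916 genes, 10.4% were called higher and 29.0% lower, with a median of -0.27. The highest were bhmt, which methylates homocysteine, with 2350 UPM in members and 78.2 UPM in other cells (log2 4.91), and cdo1, which oxidizes cysteine, with 572 UPM in members and 60.7 UPM in other cells (log2 3.24). The aromatic amino acid transporter gene slc16a10 had 383 UPM in members and 22.8 UPM in other cells (log2 4.07). The lowest of the list was gldc of glycine cleavage (log2 -3.49). The ucp1 relative ucp2 had 1411 UPM in members and 340 UPM in other cells (log2 2.05). Of the 10 measured genes of the uncoupling and mitochondrial list, 2 were called higher (ucp2 and fabp11a), 2 were called lower, and the median was 0.08. This count stands beside the same shares over all 6916 genes. Of 7 listed adipocyte markers, 3 (pparg, cidec and adipoqb) had no UMI in members, and the other 4 had 51 UMIs in all. Of the 2 measured ones, 1 was called higher (fabp11a, which is on both lists) and 1 lower.

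The mesenchymal label was checked against its markers. Of 15 listed mesenchyme markers, 13 were called higher in members than in other cells and none lower, with a median log2 ratio of 2.89, and 52 of 75 cut and 208 of 232 uncut members had UMIs of 2 or more of 8 mesenchyme genes (twist1a, twist1b, twist2, twist3, prrx1a, prrx1b, loxa and pdgfra). The collagen gene col1a1a had 49039 UPM in members and 4238 UPM in other cells (log2 3.53). The actinodin genes and1 and and2, which encode proteins of actinotrichia, had 13995 and 18454 UPM in members, against 2735 and 4541 UPM in other cells. The 2 markers between the limits were col1a1b and col1a2. The gene col1a2 had 522 UPM in members and 888 UPM in other cells (log2 -0.77), and col1a1b had 397 UPM in members and 738 UPM in other cells (log2 -0.89).

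Tenomodulin, encoded by tnmd and known as a tendon cell protein, was a further marker of the label. It had 111 UPM (97.8 to 126) in members and 9.58 UPM in other cells (log2 3.54), with UMIs in 18.7% of cut members and 34.1% of uncut members. In the uncut library 133 of the 145 tnmd UMIs outside members lay in non-members of a single cluster (cluster 1, described below). Of 13 measured genes of the tendon list, 8 were called higher in members than in all other cells and 2 lower. Set against the other mesenchymal cells described below, 1 of the 13 was called higher and 7 lower, with a median log2 ratio of -1.27. Over all 6420 genes of that comparison, 5.37% were called higher and 17.4% lower. Over the 3412 of them with at least 50 UMIs in the 2 groups together, these shares were 7.50% and 8.94%. Among the listed genes fmoda, a collagen-binding proteoglycan, had 316 UPM in members and 20.01 UPM in other cells. The tendon matrix gene thbs4b had 573 UPM in members and 38.0 UPM in other cells. The tendon transcription factor gene scxa was at 13.3 UPM in members and 5.18 UPM in other cells.

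Most listed markers of hepatocytes and kidney tubules were at or near 0 in members, but rbp4 and aqp3a were not. Of 17 listed hepatocyte markers, 15 had no UMI in members, fabp10a, tfa, ambp and apoa2 among them, and fgb had 1. The exception was rbp4, which had 1520 UPM in members and 4033 UPM in other cells. Of 9 kidney tubule markers, 5 had no UMI in members, and aqp3a held 3080 of the 3085 UMIs of the list. It had 1369 UPM in members and 228 UPM in other cells (log2 2.59). Myeloid markers had 3 UMIs in all members, erythroid markers 12, skeletal muscle markers 60 and neural crest markers 54. Higher totals included 950 for basal and intermediate epidermis, 688 for pigment cells, 446 for notochord and 417 for lateral line neuromasts. Chondrocyte markers had 209 UMIs, osteoblast markers 111 and endothelium markers 83. Of the pigment cell UMIs, 486 were gch2 UMIs of 1 cut cell. The 10 superficial epidermis markers all had UMIs in members, with a summed level of 1706 UPM in cut members and 793 UPM in uncut members, against 66194 UPM in all other cells. Their part in results on keratin genes was not tested.

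The 25 genes with the largest log2 ratio of members over other cells, among genes found in at least 25% of members, included all 6 selecting genes. First was zgc:114181, which RefSeq (GRCz12tu) lists as cndp1, a carnosine dipeptidase, with 93.3 UPM in members and 0.394 UPM in other cells (log2 7.89). The others ran from fbln1 (log2 6.37) to zic1 (log2 4.51). The matrix protein genes fbln1 and hapln1a, and the collagen crosslinking enzyme gene loxa (497 UPM in members and 14.8 UPM in other cells), were among them. So were secreted factors. The Wnt-binding protein gene sfrp2 had 173 UPM in members and 4.33 UPM in other cells, and ecrg4a, which encodes a secreted peptide precursor, had 1518 UPM in members and 19.3 UPM in other cells. Transcription factor genes of this set were msx3 (log2 5.81), zic2b (log2 5.32) and zic1. The adhesion receptor gene adgrg6 had 138 UPM in members and 2.56 UPM in other cells. These ratios are over all other cells, and not all of these genes were low in the other mesenchymal cells described below. There loxa, one of the genes that chose those cells, had 279 UPM, and zic1 had 86.6 UPM against 112 UPM in members. Others were lower there, with 7.22 UPM of fbln1, 52.9 UPM of ecrg4a and 24.1 UPM of adgrg6.

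Nearly every gene of collagen handling was called higher than in all other cells, and a smaller part was called higher than in other mesenchymal cells. Of 23 measured genes of collagen crosslinking and secretion, 22 were called higher in members and 1 lower (tmem38b), with a median log2 ratio of 2.68. In the comparison with other mesenchymal cells, 4 of the 23 were called higher and 2 lower, with a median of 0.59. Over all 6420 genes of that comparison, 5.37% were called higher and 17.4% lower, and the median was -0.32. With at least 50 UMIs in the 2 groups together, the shares were 7.50% and 8.94% of 3412 genes. The secretory calcium-binding protein gene rcn3 had 382 UPM in members and 18.9 UPM in other cells. The collagen chaperone gene serpinh1b stood at log2 2.64. By contrast 3 of 11 measured collagens were called higher (col1a1a, col11a1b and col5a2a) and 6 lower, with a median of -3.33. Of 21 measured genes of actinotrichia and matrix glycoproteins, 12 were higher and 5 lower, with a median of 2.02. The hyaluronan-binding proteoglycan gene vcanb had 2662 UPM in members and 213 UPM in other cells, whereas its paralog vcana stood at log2 -2.71. Among metalloproteinases and inhibitors, mmp2, mmp14a, mmp14b, timp2a and timp2b were called higher, and mmp9, mmp13a and mmp30 lower.

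Of 23 measured transcription factors of fin fold mesenchyme, 13 were called higher in members and 4 lower (median 2.10), with twist1b, twist3, prrx1a and prrx1b between log2 3.98 and 4.31. Against other mesenchymal cells, 5 of 21 were called higher and 5 lower (median 0.55). The other mesenchymal cells were chosen by UMIs of twist, prrx, loxa and pdgfra genes, so the levels of these genes in them are tied to that choice. Of 60 measured genes of the FGF, Wnt, BMP, retinoic acid, Hedgehog and PDGF pathways, 31 were called higher and 13 lower, with a median of 1.06. Against other mesenchymal cells, 8 of 58 genes of these pathways were called higher and 17 lower, with a median of -0.22. Over all 6420 genes of that comparison, 5.37% were called higher and 17.4% lower, and the median was -0.32. With at least 50 UMIs in the 2 groups together, the shares were 7.50% and 8.94% of 3412 genes. Among ligands, fgf10a had 49.8 UPM in members and 2.36 UPM in other cells, while fgf8a had 1 UMI in members. Among receptors fgfr4 (log2 3.22) and pdgfra (log2 3.51) were higher, and fgfr3 (log2 -3.30) was lower. The retinoic acid degrading enzyme cyp26b1 had 103 UPM in members, 13.1 UPM in all other cells and 356 UPM in other mesenchymal cells. The 5 measured genes of the posterior hox13 group, listed after values were seen, were all called higher, from log2 2.22 for hoxc13a to 3.62 for hoxa13a.

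Members were also set against 51 other mesenchymal cells (23 cut and 28 uncut), which had UMIs of 2 or more of the same mesenchyme genes under the same limits. Levels of those mesenchyme genes in other mesenchymal cells are tied to this choice, in the lists above too. Their median depth was 5747 UMIs in the cut and 9491 UMIs in the uncut library. Over 6420 genes with at least 100 UMIs in all cells and more than 3 in either group, 5.37% were called higher in members and 17.4% lower. Other mesenchymal cells held fewer UMIs in all, so the floor of 3 counts stands for a higher level in them than in members. A gene with no UMI in them and few in members could thus be called lower in members. Over the 3412 of them with at least 50 UMIs in both groups together, a minimum set after the data were seen, 7.50% were called higher and 8.94% lower. Besides hpdb, pah, ttc36, ucp1 and tat, the 10 genes highest in members were qdpra, aqp3a, ecrg4a, and2 and msx3. The water channel gene aqp3a had 1369 UPM in members and 33.7 UPM in other mesenchymal cells (log2 5.34). The actinodin gene and2 had 18454 UPM in members and 686 UPM in other mesenchymal cells (log2 4.75). As non-members under the same limits, other mesenchymal cells each had UMIs of fewer than 2 selecting genes. Low levels of the selecting genes in them thus follow from the choice and are a description. The selecting genes tat and ucp1 had no UMI in other mesenchymal cells. With the floor of 3 counts over that group they were at least 5.56 and 6.15 higher on the log2 scale.

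Both collagens that stood apart from col1a1a were far lower in members. The gene col1a2 had 522 UPM in members and 15559 UPM in other mesenchymal cells (log2 -4.90), and col1a1b had 397 UPM in members and 11583 UPM in other mesenchymal cells (log2 -4.87). With 13850 UPM of col1a1a, other mesenchymal cells had all 3 type I collagen genes between 11583 and 15559 UPM. Other genes far lower in members were the Hedgehog-binding protein gene hhip (14.7 UPM in members and 515 UPM in other mesenchymal cells), the Wnt inhibitor gene wif1 (7.56 and 154 UPM), pdgfrl, vwde, meox1, tnn, foxc1b and clu. The pooled level of tnmd was also lower in members than in other mesenchymal cells, at 111 UPM against 267 UPM (log2 -1.27). Most tnmd UMIs outside members lay in few cells. In the uncut library 133 of them lay in 9.26% of the 54 non-members of cluster 1, while 34.1% of uncut members had tnmd UMIs.

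Members differed among themselves in how many selecting genes they carried. In the cut library 12, 13, 10, 20 and 20 members had UMIs of 2, 3, 4, 5 and 6 of these genes, and in the uncut library 22, 23, 60, 47 and 80. Deeper cells did not carry more of them. Uncut members with 2 selecting genes had a median of 11388 UMIs, and uncut members with all 6 had a median of 4351 UMIs. Across cells the levels of pah and hpdb went together, with a Spearman rho of 0.736 over 75 cut members and 0.662 over 232 uncut members. The level of pah went against total UMIs, with a rho of -0.488 in cut and -0.592 in uncut members. These values share a library and a cell total and carry no test. Both pah and hpdb were also among the genes that chose the members, so their rho is tied to that choice.

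**Figure D2:**
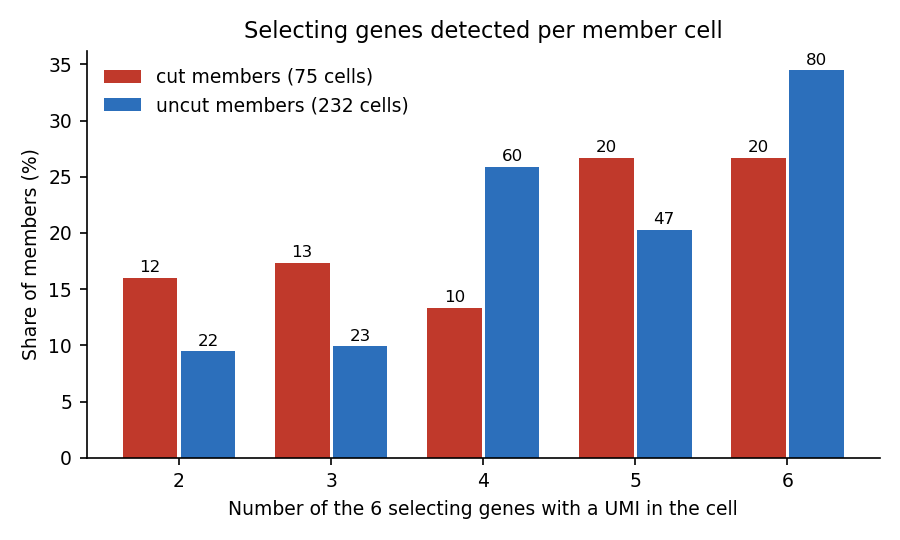
Share of members (%) by the number of the 6 selecting genes with a UMI in the cell, for 75 cut members and 232 uncut members; the number of cells stands on each bar. In both libraries over 50% of members had 4 or more of the genes, with 20 cut and 80 uncut members holding all 6.

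Clusters made without the selecting, cycling and superficial genes and without tnmd split the members into 3 main sets. Of 20 clusters, 3 were made up of over 50% members and held 280 of the 307. Cluster 4 held 135 members among 139 cells, and cluster 11 held 61 members among 61 cells. Cluster 1 held 84 members among 163 cells, a share of 51.5%. A further 19 members lay in cluster 7. Leading genes outside those left out, which made the clusters and are no finding, were qdpra, zgc:114181, ecrg4a and serpinf1 for cluster 4, ecrg4a, hapln1a and zic2b for cluster 11, and hhip, cd248a, tnn and foxd2 for cluster 1.

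The selecting genes, which the clustering did not see, differed between these sets. In cluster 1 members, pah had 44.6 UPM in the cut library and 409 UPM in the uncut library, against 2687 UPM in cut and 2984 UPM in uncut members of cluster 4. The genes tat and ucp1 had no UMI in the 13 cut members of cluster 1. In its 71 uncut members tat had 32.0 UPM and ucp1 24.98 UPM, against 861 UPM and 1285 UPM in uncut members of cluster 4. The gene hgd differed less than these, at 536 UPM in cut and 588 UPM in uncut members of cluster 1, against 1374 UPM and 1341 UPM in those of cluster 4. Cluster 11 resembled cluster 4 in pah, with 2208 UPM in cut members and 2951 UPM in uncut members. The gene tnmd was found in 62.2% of uncut members of cluster 11, 45.4% of those of cluster 4 and 4.23% of those of cluster 1.

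The 79 non-members of cluster 1 carried lower levels of the same genes, with 189 UPM of hgd, 117 UPM of ttc36, 78.2 UPM of hpdb and no ucp1. The 3 sets had overlapping intervals for their shares of cut and of uncut members. Cluster 11 held 21.3% (12.7 to 32.3) of cut members and 19.4% (14.5 to 25.1) of uncut members. Cluster 4 held 50.7% (38.9 to 62.4) of cut members and 41.8% (35.4 to 48.4) of uncut members. Cluster 1 held 17.3% (9.57 to 27.8) of cut members and 30.6% (24.7 to 37.0) of uncut members. Cluster 1 members were also the deepest, with a median of 8100 UMIs in the cut and 13687 UMIs in the uncut library.

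**Figure D3:**
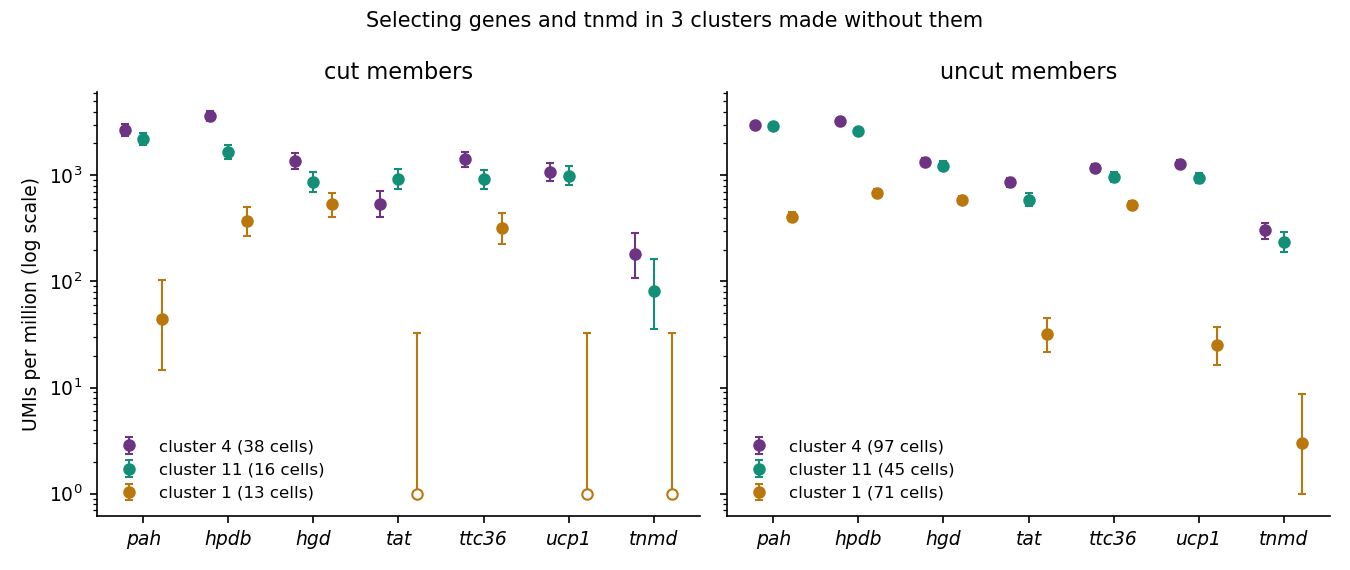
Level in UPM (log scale) of the 6 selecting genes and tnmd in members of clusters 4, 11 and 1, with cut members in the left panel and uncut members in the right and exact Poisson 95% intervals; open circles at 1 stand for no UMI, and bounds under 1 are drawn at 1. Cluster 1 lies below clusters 4 and 11 for each gene in both panels and has no tat, ucp1 or tnmd UMI in its 13 cut members.

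A split of members by ucp1, chosen after values were seen, had many genes on the same side in both libraries. There were 38 cut members with ucp1 UMIs and 37 without, and 118 uncut members with ucp1 UMIs and 114 without. UMIs of ucp1 were found in 77.8% of 135 cluster 4 members, 63.9% of 61 cluster 11 members and 4.76% of 84 cluster 1 members. The split therefore also parts most of cluster 1 from clusters 4 and 11, and its ratios were not tested within clusters. Members with ucp1 were shallower, at a median of 2652 UMIs against 3559 UMIs in the cut library and 3890 UMIs against 10698 UMIs in the uncut library. Of 1677 genes with at least 100 UMIs in members, 79 were called higher with ucp1 in both libraries, ucp1 itself included, and 136 were called lower. After thinning to 2000 UMIs, 38 of the 79 and 108 of the 136 passed the same limits in the pooled libraries.

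Among the lists, 5 of the 6 selecting genes (ucp1 itself one of them), 7 of 13 measured genes of actinotrichia and matrix glycoproteins and 5 of 14 mesenchyme markers were called higher with ucp1 in both libraries. None of the 5 measured genes of the wider catabolism list was, and hgd, at log2 0.89 in cut members, did not reach the limit there. These counts stand beside the 79 and 136 of 1677 genes, and the selecting genes and ucp1 are not independent of the split. The gene tat had 894 UPM in cut members with ucp1 and 115 UPM in those without, and 875 UPM and 46.4 UPM in the uncut library. The gene and2 had 38425 UPM with and 7541 UPM without ucp1 in cut members, and 39096 UPM with and 7583 UPM without ucp1 in uncut members. The proton carrier relative ucp2 (log2 1.63 in cut and 2.69 in uncut members), tnmd (2.54 and 2.65), pah (2.03 and 1.95) and qdpra (2.37 and 2.02) went the same way. The superficial epidermis genes krt4 and icn2 were also higher with ucp1, at log2 3.58 and 1.93 in cut and 1.36 and 3.31 in uncut members, and single cells held 378 of the 453 cut and 400 of the 1201 uncut krt4 UMIs.

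In the other direction, 8 of 11 measured cell division genes, 6 of 30 signaling genes and 6 of 22 regeneration and stress genes were called lower with ucp1 in both libraries. Of the mesenchyme markers 2 were called lower, col1a2 and col1a1b, while col1a1a was higher with ucp1 (log2 1.75 in cut and 1.29 in uncut members). The gene col1a2 had 20.8 UPM in cut members with ucp1 and 851 UPM in those without, and 91.3 UPM and 743 UPM in the uncut library. The intermediate filament gene vim had no UMI in 38 cut members with ucp1 and 215 UPM in those without, and 12.6 UPM and 270 UPM in the uncut library. The replication clamp gene pcna had 6.93 UPM in cut members with ucp1 and 140 UPM in those without, and 22.0 UPM and 285 UPM in the uncut library. The chemokine gene ccl25b, the stromal receptor gene cd248a and the replication helicase genes mcm2 and mcm6 went the same way, as the plot of the ucp1 split shows. Cells with 2 or more cycling genes were not members, so these replication genes lie in cells with few or no UMIs of the mitotic ones.

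**Figure D4:**
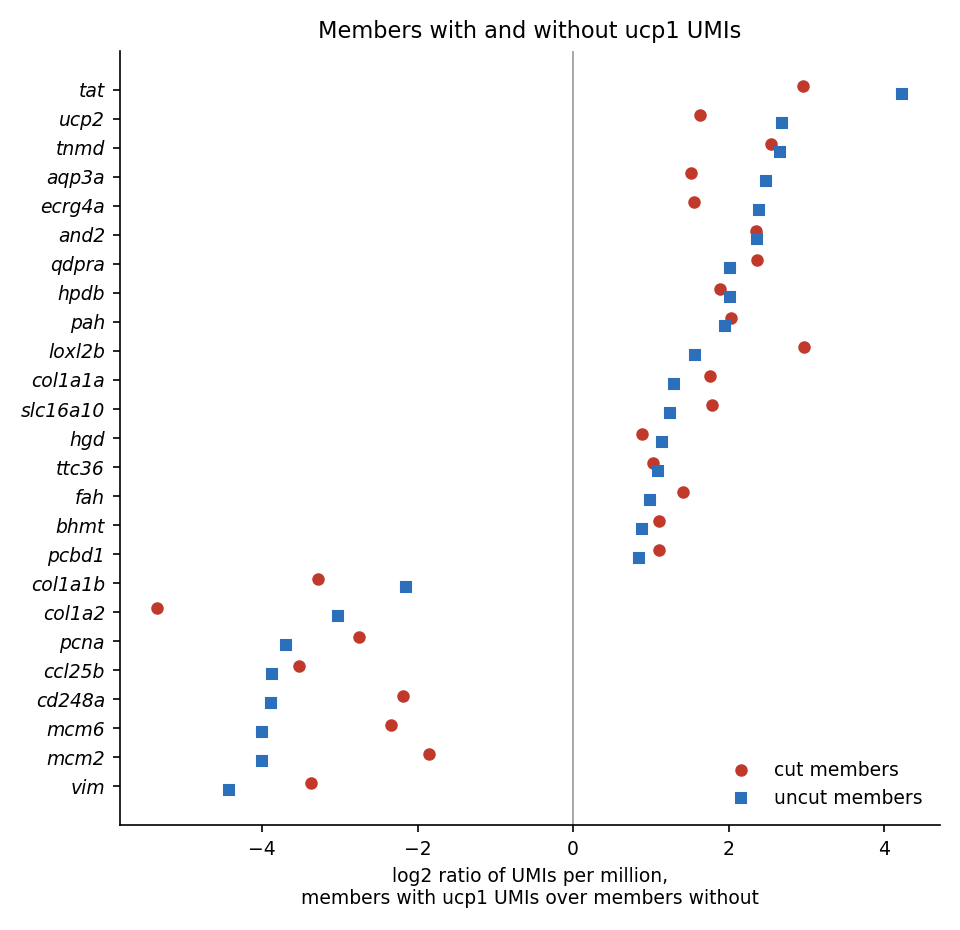
log2 ratio of UPM in members with ucp1 UMIs over members without, for 25 genes in cut members (circles) and uncut members (squares), with counts under 3 set to 3. The genes were chosen after values were seen. For tat the ratios are 2.96 in cut and 4.24 in uncut members, and for col1a2 the ratios are -5.36 in cut and -3.02 in uncut members.

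Members made up a smaller share of the cut library. They were 9.84% (7.82 to 12.2) of cut cells and 26.4% (23.5 to 29.5) of uncut cells. After thinning to 2000 UMIs, which left out 85 cut cells and no uncut cell, they were 7.24% (5.40 to 9.46) of 677 cut cells and 24.1% (21.3 to 27.1) of 878 uncut cells. The intervals do not overlap, but with 1 pool per condition the difference cannot be told apart from a difference between dissociations or libraries. A share can also change because other cells became more or fewer.

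Members of each library were selected on UMIs of the same 6 genes, so the levels of these genes in cut and uncut members, and their lower levels outside members, are tied to that choice and are a description. Cut members had 1456 UPM of pah and uncut members 1481 UPM, a log2 ratio of -0.02 (-0.16 to 0.11). For hpdb the levels were 1709 UPM in cut and 1662 UPM in uncut members (log2 0.04), and for hgd 883.7 UPM in cut and 883.5 UPM in uncut members (log2 0.00). The largest ratio among the 6 was that of tat, with 442 UPM in cut and 323 UPM in uncut members (log2 0.45, 0.19 to 0.71). The tat ratio was 0.01 after thinning to 2000 UMIs and 0.03 with every cell weighted equally. In members with ucp1 UMIs tat had 894 UPM in cut and 875 UPM in uncut members (log2 0.03), and in members without them 115 UPM in cut and 46.4 UPM in uncut members (log2 1.31, 0.55 to 2.03). Outside members the same genes were lower in the cut library, by log2 ratios of -1.32 to -3.11, and the cells left out by the other limits numbered 10 in the cut and 51 in the uncut library. Among the other genes of the pathway fah (log2 0.00), gstz1 (-0.21) and pcbd1 (-0.23) lay close to 0, and qdpra was at 907 UPM in cut and 609 UPM in uncut members (log2 0.58). The gene hpda stood at log2 -1.99 (-5.65 to -0.66), from 2 UMIs in cut members. The structural genes and1 (log2 -0.02) and col1a1a (-0.20) were likewise near 0.

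Over 2941 genes with at least 50 UMIs in members, 6.94% were called higher in cut members and 3.91% lower, and the median log2 ratio was 0.18. These were 204 higher and 115 lower genes, and without the richest cell of each gene in each library they were 127 higher and 217 lower. The 10 genes at the upper end among those with 200 UMIs or more fell into genes of single cells and genes spread over many members. The genes gch2, a pigment cell marker, and wu:fc46h12 stood at log2 9.81 and 9.34, but 486 of 486 and 703 of 703 of their cut UMIs came from the 1 cell described above. For cyt1l and marcksl1b, 196 of 239 and 102 of 160 cut UMIs came from 1 cell each, and with at least 3 selecting genes required cyt1l turned round to -0.79.

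The others included signaling inhibitors and transcription factors. The cytokine signaling inhibitor gene socs3a had 419 UPM in cut members and 37.8 UPM in uncut members (log2 3.47, 3.05 to 3.90), with UMIs in 34.7% of cut and 12.5% of uncut members. In all other cells it had 260 UPM in the cut and 299 UPM in the uncut library. The transcription factor gene cebpb had 547 UPM in cut members and 81.3 UPM in uncut members (log2 2.75), against log2 0.60 in other cells. The AP-1 genes junbb and junba had 773 and 334 UPM in cut members, against 163 and 84.5 UPM in uncut members, and socs3b had 250 UPM in cut and 64.5 UPM in uncut members. The matrix protein gene tgfbi had 235 UPM in cut members and 63.0 UPM in uncut members (log2 1.90), against log2 -0.84 in other cells. The socs3a, cebpb, junbb and junba ratios held both in members with ucp1 (log2 3.31, 3.20, 2.31 and 2.03) and in members without it (3.58, 2.24, 2.20 and 2.02).

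At the lower end several genes owed many UMIs to single cells. For krt97, tmsb1, ptgdsb.1, cfl1l and pfn1, single uncut cells held 239 of 369, 321 of 629, 348 of 469, 127 of 280 and 428 of 932 UMIs. The keratin gene krt91 had 26.2 UPM in cut and 151 UPM in uncut members, with 90 of its 288 uncut UMIs in 1 cell. The signaling genes at this end were cyp26b1, with 29.1 UPM in cut and 116 UPM in uncut members (log2 -1.996, -3.08 to -1.09), and the ligand gene bmp4, with 37.8 UPM in cut and 99.7 UPM in uncut members (log2 -1.40). After thinning to 2000 UMIs bmp4 turned round to 0.28 and cfl1l to 0.054, and cyp26b1 stood at -0.89. Of the cyp26b1 UMIs, 73 of 221 in uncut members came from 1 cell, and without the richest cell of each library its log2 ratio was -1.74. The microtubule regulator gene stmn1a had 66.9 UPM in cut and 183 UPM in uncut members (log2 -1.45), but -0.25 with no limit on cycling genes and -0.47 after thinning. The ribosomal protein gene rpl38 had 1529 UPM in cut members and 4288 UPM in uncut members (log2 -1.49), and was also lower in other cells (log2 -1.05).

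**Figure D5:**
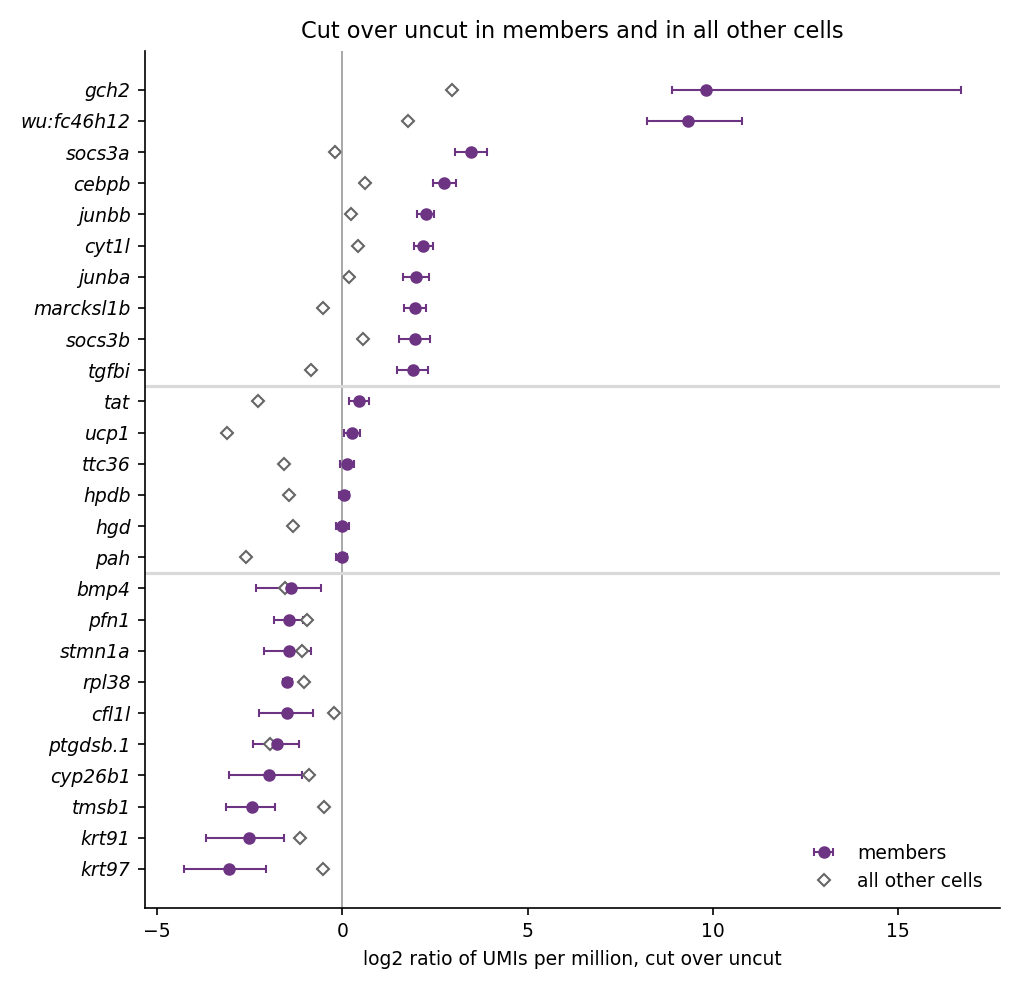
log2 ratio of UPM, cut over uncut, in members (filled circles with exact conditional 95% intervals) and in all other cells (open diamonds), for the 10 genes at the upper end, the 6 selecting genes and the 10 genes at the lower end. The selecting genes lie between -0.02 and 0.45 in members, socs3a and cebpb lie at 3.47 and 2.75, and krt97 at -3.06; the gch2 and wu:fc46h12 points come from 1 cut cell.

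Of 27 measured regeneration and stress genes, 13 were called higher in cut members and 1 lower (sox11b), beside 6.94% and 3.91% over all 2941 genes. The median log2 ratio of the 27 was 0.98, against -0.12 for the same genes in other cells. Besides those above, atf3 had 160 UPM in cut and 31.5 UPM in uncut members, fosl2 had 84.3 UPM in cut and 19.4 UPM in uncut members, and cebpd had 669 UPM in cut and 264 UPM in uncut members. Members had less of many of these genes than other cells had, since 26 of 42 were called lower and 6 higher in members over all other cells (median -1.28). Over all 6916 genes of that comparison, 29.0% were called lower and 10.4% higher. The summed superficial epidermis markers stood at 1706 UPM in cut and 793 UPM in uncut members, and their part in these ratios was not tested.

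Pooled over all depths, cell division genes outside the selection leaned the other way. Of 12 measured, 6 were called lower in cut members and none higher, beside 3.91% lower and 6.94% higher over all 2941 genes. The median of the 12 was -0.94, against 0.38 in other cells. The gene pcna had 84.3 UPM in cut members and 197 UPM in uncut members (log2 -1.23), and mcm5 had 32.0 UPM in cut and 90.2 UPM in uncut members (log2 -1.50), against 0.69 in other cells. The pooled pcna ratio did not hold at every depth. With members of each library split into 3 groups by total UMIs, pcna was lower in cut members only in the deepest (48.9 against 287 UPM). It had 265 UPM in cut and 24.6 UPM in uncut members of the shallowest group, and 81.1 and 45.4 UPM in the middle group. The gene mcm2 was higher in cut members in the shallowest group only. These groups were not matched in depth between libraries. Of the pcna UMIs, 28 of 29 in cut and 362 of 376 in uncut members lay in members without ucp1, where pcna had 140 UPM in cut and 285 UPM in uncut members (log2 -1.02). The limit on cycling genes left out 8 cut and 29 uncut cells.

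Of 40 measured signaling genes, 4 were called higher in cut members (igfbp5b, fgf10a, id2a and cxcl14) and 7 lower, with a median of -0.13. The counts of this list and of those below stand beside 6.94% higher and 3.91% lower over all 2941 genes. The ligand gene fgf10a had 125 UPM in cut and 36.2 UPM in uncut members (log2 1.79, 1.20 to 2.36), with 16 of its 43 cut UMIs in 1 cell. The 7 signaling genes lower at full depth were lef1, etv5b, sfrp1a, bmp4, cyp26b1, cxcl12a and mdkb, with bmp4 turned round after thinning as given above. Of 20 measured crosslinking and secretion genes, 2 were called higher (bmp1a and p4hb) and none lower, with a median of 0.51. Among 5 measured metalloproteinases and inhibitors, timp2b had 297 UPM in cut and 47.2 UPM in uncut members (log2 2.65, 2.23 to 3.08), against 0.17 in other cells, and mmp14b was at log2 1.31. For timp2b the ratio was 2.07 in members with ucp1 and 3.39 in those without.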

How the data were processed

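The submitters' processing notes name danRer11, FastQC and Cell Ranger 3.1.0. The authors deposited UMI counts, as whole numbers, for 15411 genes in each cell, once for either library and once for both aggregated. No per-sample column was left unmatched. The aggregated counts, which kept 95.3% of the UMIs of the cut library and 100% of those of the uncut library, were used here, and each cell was given its library by its barcode. The counts were handled in Python (3.11.15) using scipy (1.17.1). Members and gene lists were chosen with earlier results of these data known.

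Genes needed at least 100 UMIs in all cells for members over other cells, 100 UMIs in all cells and more than 3 in either group for other mesenchymal cells, and 50 UMIs in members for cut over uncut. Genes named were those of the selection, the lists, the 25 leading in members, and 10 at each end of the other comparisons (found in at least 25% of the higher group, or with at least 200 UMIs in members for cut over uncut); any others were chosen after their values were seen. Clusters came from Leiden (scanpy 1.11.5, leidenalg 0.10.2) at resolution 1 on 15 neighbours and 20 components of log2 scaled UMIs. Scrublet called 0 cut and 5 uncut cells doublets, 1 of them a member, and none was removed. The gene zgc:158463, annotated as ribosomal RNA in RefSeq, took 5.58% of UMIs in cut and 5.35% in uncut members and stayed in the totals. The ratio and thinning steps were tested on simulated data.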

Additional observations from a re-analysis of the deposited data

Results flagged for a closer look

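For 5 of 1677 genes with at least 100 UMIs in members, cut members and cut other cells moved in opposite directions against their uncut counterparts, each by a log2 ratio of 1 or more; the difference between the 2 ratios was not tested. The gene angptl7 had 247 UPM in cut and 122 UPM in uncut members (log2 1.02), against a log2 ratio of -1.90 in all other cells. The gene srpx stood at log2 1.15 in members, from 93.0 UPM in cut and 42.0 UPM in uncut members, and at -1.17 in other cells. The gene tspan9b stood at log2 1.08 in members and -1.14 in other cells. For mt2 the ratios were 1.58 in members and -2.31 in other cells, and for vwde 2.70 in members and -1.07 in other cells. Single cut members held 47 of the 53 mt2 UMIs and 58 of the 62 vwde UMIs, and without the richest cell of each library the ratios in members were -0.92 and -0.17. Without those cells angptl7 was at 0.58, tspan9b at 0.85 and srpx at 1.06.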

How the results depend on the processing

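Members were 8.27% to 12.99% of cut cells and 23.9% to 32.8% of uncut cells at full depth, over the selection rules tried. The share of uncut cells was 29.7% with no limit on cycling genes, and with at least 1 of the 6 selecting genes the shares were 12.99% of cut and 32.8% of uncut cells. Thinned to 2000 UMIs the share of cut cells was 7.24%, and 229 genes were called higher and 997 lower in members than in all other cells, against 720 and 2005 at full depth; 78 were higher and 20 lower in cut members, against 204 and 115. A minimum of 300 UMIs, which tests fewer genes, gave 355 higher and 1256 lower in members than in other cells, and 26 higher and 12 lower in cut members. Without the richest cell of each gene in each library, 127 were higher and 217 lower in cut members; the richest of 75 cells takes a larger part of a total than the richest of 232. Against other mesenchymal cells 345 genes were higher and 1114 lower; with minimums for both groups together, added after the data were seen, 256 were higher and 305 lower at 50 UMIs, and 100 higher and 84 lower at 200 UMIs, which test fewer genes. Clusters of over 50% members held 91.2% of members at resolution 1, 66.1% at 0.5 and 69.4% at 2. Single genes turned round in the cut over uncut ratio of members: cyt1l to -0.79 with at least 3 selecting genes, -0.31 with 2 of the 4 enzyme genes and -0.26 with 2 UMIs per gene, and cfl1l to 0.054 and bmp4 to 0.28 after thinning. Separate matrices, Scrublet doublets left out, cells weighted equally and the single gch2-rich cell left out moved no count by over 1.5 times. No paired analysis was possible because each condition had 1 library.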
